A study of Mus musculus and Homo sapiens with 107 samples.

Results

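The 8 genes described here are the claudins CLDN1, CLDN2, CLDN3, CLDN4, CLDN7 and CLDN12, the occludin gene OCLN and TJP1, and all 8 have a row among the 22842 identifiers listed for both cell lines. They were taken by identifier as members of the tight junction, a family selected on the fold changes of BRM014 over DMSO in A549, where CLDN2 had the largest fall. The values of that contrast are therefore given as a description without a test. The libraries used here measured gene expression with or without BRM014, an inhibitor of BRM and BRG1, the ATPases that drive SWI/SNF chromatin remodelling. The other 95 samples of the study, from other assays in other cells, were not analysed. A549, a lung adenocarcinoma line, and H1299, a line of non-small-cell lung cancer from a lymph node, received 5 µM BRM014 or the solvent DMSO for 12 h, and each of the 4 groups had 3 libraries. The labels give the genotype of every library as wt. Both lines are known to lack functional BRG1, and each group stands for a single cultured line. The solvent was at 0.05% in the titles and at 0.5% in another label field, and which of these was used cannot be told from the counts.

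Claudins are membrane proteins that meet their partners on the neighbouring cell at the tight junction, the seal near the top of epithelial cells. Some claudins tighten this seal and others form pores that let selected ions and water pass between cells, so the mix a cell expresses sets how leaky its layer is. Occludin shares the junction strands with the claudins, and the scaffold protein ZO-1, the product of TJP1, ties strand proteins to the actin cytoskeleton from inside the cell.

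The A549 libraries held 42417643 to 44910378 counts with BRM014 and 40684360 to 50177678 with DMSO. The H1299 libraries held 30602193 to 41780029 counts with BRM014 and 28412113 to 40072734 with DMSO. In A549, a pair of BRM014 columns share a header and are called libraries a and b here. Their counts differed from each other beyond sampling noise, with a chi-square per degree of freedom of 4.99. Levels are given as CPM, the count of a gene relative to its library's total after scaling with TMM factors over the 12 libraries, not divided by gene length, so they compare a gene between libraries and not one gene with another. The spike-in RNA was not used, so a level is relative to the other genes of its library. Markers of the lines were not checked, since only the 8 genes here could be tied to a symbol.

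**Figure D1:**
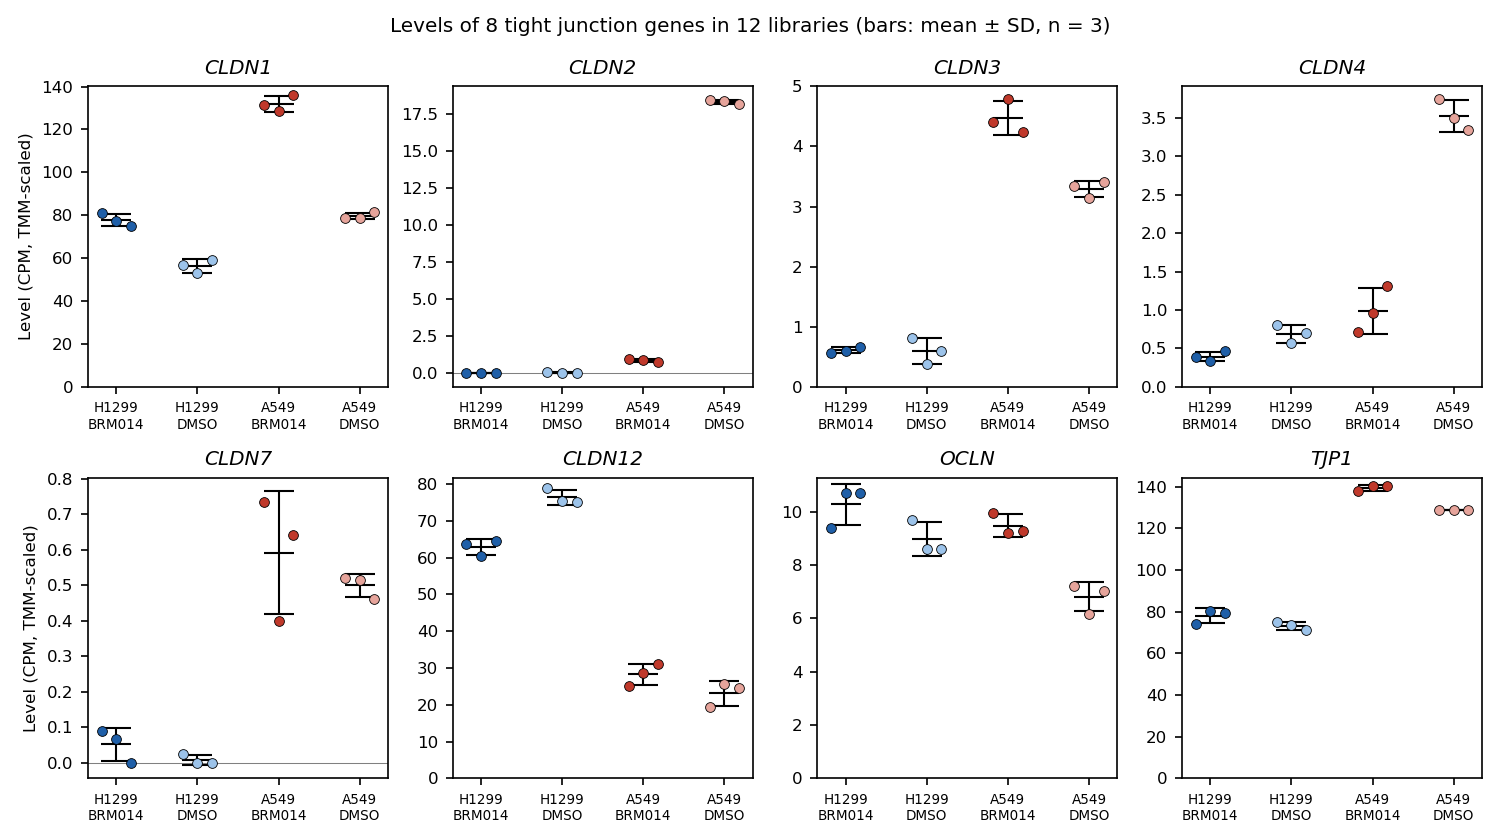
Level of each of the 8 genes in the 12 libraries, in TMM-scaled CPM on a linear axis that differs between panels; points are libraries, and bars are the mean and SD of 3 libraries. CLDN2 was at 18.2 to 18.4 CPM in the A549 DMSO libraries and at most 0.93 CPM in every other library, while CLDN12 was higher in each H1299 library than in any A549 library.

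CLDN2 (ENSG00000165376) forms paracellular pores for small cations and water and is known to be raised in lung adenocarcinoma. In A549 it stood at 0.93, 0.892 and 0.74 CPM in BRM014 libraries a, b and 3, against 18.4, 18.4 and 18.2 CPM in the DMSO libraries. Each BRM014 library was thus far below each DMSO library, and the replicates of either group lay close together. The log2 fold change was -4.40, with a standard error (SE) of 0.10, a level 21.1 times lower with BRM014. The counts behind it were 106 in the BRM014 libraries and 2283 in the DMSO libraries, and some CLDN2 reads remained in every BRM014 library.

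These values chose the gene. The ranking was limited to A549 genes that averaged at least 5 CPM, passed the adjusted p threshold in edgeR and had no overlap between groups. The adjusted p served only as a filter there and is not read as a test. Among the genes kept, CLDN2 had the lowest fold change. The next was the gene listed as ENSG00000168398, at 1.51 CPM with BRM014 and 25.4 CPM with DMSO. Its log2 fold change was -4.05 (SE 0.09). With none of these conditions, CLDN2 held rank 10 from the lowest among the 15188 genes in the fit.

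CLDN2 was near the limit of detection in H1299. The BRM014 libraries held 0 counts, which allows a level of up to 0.0265 CPM (3 counts over the 3 libraries together), and the DMSO libraries held 3, 0 and 1 counts. No fold change is given for H1299, since these counts lie at or close to that limit. The order of the groups was A549 with DMSO, A549 with BRM014, H1299 with DMSO and H1299 with BRM014, and the H1299 groups overlapped. CLDN2 in BRM014-treated A549, at 0.854 ± 0.101 CPM (SD, n = 3), was still above every H1299 library. Over the 12 libraries, the gene whose log2(CPM + 0.5) followed that of CLDN2 most closely was the one listed as ENSG00000179772 (Pearson r = 0.998). It averaged 0.532 CPM with BRM014 and 6.5 CPM with DMSO in A549, and 0.0363 and 0.0545 CPM in H1299. Both genes were highest in the A549 DMSO libraries. Among the members, CLDN4 came closest to CLDN2 by this measure, with r = 0.971 over the same 12 libraries. Both correlations mainly set the A549 DMSO libraries, with CLDN2 at 18.2 to 18.4 CPM, against libraries with at most 0.93 CPM. The A549 DMSO values are also among those that chose CLDN2, so nothing further is read from r.

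CLDN4 (ENSG00000189143) and CLDN3 (ENSG00000165215) are barrier-forming claudins, neighbours on the same chromosome, and both are receptors for an enterotoxin of Clostridium perfringens. CLDN4 was the other member lower with BRM014 in A549. Its levels were 0.71, 0.962 and 1.31 CPM in the BRM014 libraries and 3.74, 3.5 and 3.34 CPM in the DMSO libraries. The groups did not overlap, and the log2 fold change was -1.81 with an SE of 0.18, a level 3.5 times lower. BRM014 library 3 was the highest of its group. The log2 fold change was -2.05 without it, -1.63 without library a, and -1.43 with library 3 as the sole BRM014 library. These levels rest on 29 to 53 counts per BRM014 library.

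In H1299, CLDN4 also had its lowest values with BRM014, but did not pass the test. The libraries stood at 0.387, 0.335 and 0.461 CPM with BRM014 and at 0.804, 0.565 and 0.695 CPM with DMSO, with no overlap. The log2 fold change was -0.83 (SE 0.34, 95% interval -1.51 to -0.14), with an adjusted p of 0.0768 in edgeR and of 0.0627 to 0.294 over the alternatives. With 44 counts over the BRM014 libraries and 74 over the DMSO libraries, the depth leaves a wide range for the size of this difference.

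CLDN3 did not share the direction of its neighbour in A549. It stood at 4.41, 4.79 and 4.24 CPM with BRM014 and at 3.34, 3.15 and 3.4 CPM with DMSO, without overlap, a log2 fold change of 0.46 (SE 0.10). In H1299 it stood at 0.565, 0.603 and 0.663 CPM with BRM014 and at 0.804, 0.387 and 0.596 CPM with DMSO. These groups overlapped, and the log2 fold change was 0.01 with a 95% interval of -0.66 to 0.67 (adjusted p = 0.994 in edgeR). In fold terms this interval spans 0.633 to 1.59, so a change within these bounds in either direction is not excluded.

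Ratios of counts within a library do not depend on how libraries are scaled. For every 100 CLDN3 counts, A549 had 22.3 ± 7.6 CLDN4 counts with BRM014 and 107 ± 7.84 with DMSO (SD, n = 3). In H1299 the ratio was 64.5 ± 7.78 with BRM014 and 121 ± 23.4 with DMSO. The BRM014 libraries were below all DMSO libraries in each line, at 16.1 to 30.8 against 98.1 to 112 in A549 and 55.6 to 69.6 against 100 to 146 in H1299. The H1299 ratios rest on 13 to 34 counts of each gene per library, and neither gene passed the H1299 test. No ratio was tested. For every 100 CLDN1 counts, A549 had 0.648 ± 0.0912 CLDN2 counts with BRM014 and 23.0 ± 0.609 with DMSO. Both reference genes were themselves higher with BRM014 in A549, with log2 fold changes of 0.46 for CLDN3 and 0.75 for CLDN1. The A549 ratios therefore hold the changes of both genes, and they differ more between the groups than CLDN4 or CLDN2 alone.

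**Figure D2:**
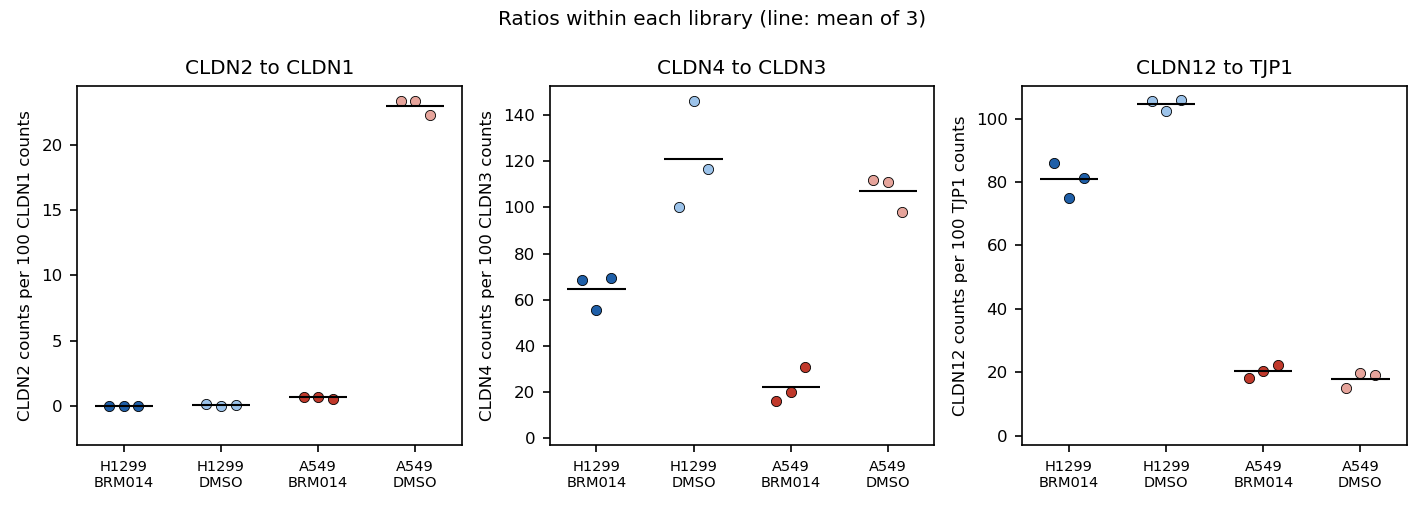
Counts of a gene per 100 counts of a second gene in the same library, for CLDN2 to CLDN1, CLDN4 to CLDN3 and CLDN12 to TJP1; points are libraries and lines are means of 3. The CLDN4 to CLDN3 ratio was lower with BRM014 in both lines, in H1299 from few counts of either gene. The CLDN12 to TJP1 ratio was lower with BRM014 in H1299 (75.0 to 86.1 against 102 to 106), while the A549 groups overlapped. The ratios were not tested.

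CLDN1 (ENSG00000163347) is a barrier-forming claudin, known in mice to be needed for the water barrier of the skin. It was higher with BRM014 in both lines. In H1299 it stood at 80.8, 77.5 and 75.1 CPM with BRM014, each above the 56.8, 53.0 and 59.3 CPM with DMSO. It rose by a log2 fold change of 0.46 (SE 0.04, adjusted p = 5.87e-11 in edgeR), with adjusted p-values of 3.04e-27 to 3.73e-08 over the alternatives. In A549, CLDN1 stood at 131, 129 and 136 CPM with BRM014 and at 78.9, 78.7 and 81.5 CPM with DMSO. Its log2 fold change there was 0.75 with an SE of 0.04, the highest of the 8 genes. From high to low, the groups stood in the order A549 with BRM014, A549 with DMSO, H1299 with BRM014 and H1299 with DMSO, where the middle pair overlapped.

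CLDN12 (ENSG00000157224) is an atypical claudin that lacks the tail motif by which other claudins bind PDZ domains such as those of ZO-1. In H1299 it stood at 63.8, 60.4 and 64.6 CPM with BRM014 and at 78.8, 75.4 and 75.2 CPM with DMSO. The groups were apart, and CLDN12 fell by 0.28 on the log2 scale (SE 0.04, adjusted p = 5.37e-07 in edgeR), with adjusted p-values of 2.02e-10 to 0.00653 over the alternatives. In A549 the values were 25.2, 28.6 and 31.0 CPM with BRM014 and 19.3, 25.6 and 24.6 CPM with DMSO. These overlapped, with a log2 fold change of 0.31 and a standard error of 0.10, or 0.20 without DMSO replicate 1, the lowest library. CLDN12 was thus lower with BRM014 in H1299 and on average higher in A549.

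CLDN7 (ENSG00000181885), found along the sides of epithelial cells as well as in the junction, had few counts in both lines. In A549 it stood at 0.735, 0.399 and 0.641 CPM with BRM014 and at 0.521, 0.515 and 0.461 CPM with DMSO, and the groups overlapped. Its log2 fold change was 0.26 with an SE of 0.28, from 17 to 30 counts per library, and it was 0.06 without library a and 0.49 without library b. In H1299, 6 counts with BRM014 and 1 with DMSO gave a ratio of 5.63 with a 95% exact interval of 0.683 to 259, which covers counting error only. CLDN7 and CLDN2 were the members below the minimum for the H1299 test.

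OCLN (ENSG00000197822) encodes occludin, which helps to organise the strands and to regulate the junction. A partial copy of OCLN is known in the human genome, and how reads shared with it were counted is not stated in the labels. In A549 it stood at 9.97, 9.2 and 9.29 CPM with BRM014 and at 7.23, 6.18 and 7.05 CPM with DMSO, without overlap. The log2 fold change there was 0.49 with an SE of 0.09. In H1299 it stood at 9.4, 10.7 and 10.7 CPM with BRM014 and at 9.7, 8.6 and 8.6 CPM with DMSO. BRM014 replicate 1 lay below DMSO replicate 1, and the log2 fold change of 0.19 (SE 0.09, 95% interval 0.02 to 0.37) had an adjusted p of 0.107 in edgeR. Without BRM014 replicate 1, OCLN had a log2 fold change of 0.25 and an adjusted p of 0.0499. Over the alternatives the adjusted p ran from 0.0499 to 0.280, and in 12 of 13 OCLN did not pass the threshold.

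TJP1 (ENSG00000104067) encodes ZO-1, whose PDZ domains bind the tails of most claudins. Its levels with BRM014 were close to those with DMSO. In A549 it stood at 138, 140 and 140 CPM with BRM014 and at 129, 129 and 129 CPM with DMSO, apart by a log2 fold change of 0.13 (SE 0.04). In H1299 it stood at 74.2, 80.5 and 79.5 CPM with BRM014 and at 74.8, 73.7 and 71.1 CPM with DMSO, and the groups overlapped. The log2 fold change there was 0.09 (SE 0.04, 95% interval 0.01 to 0.17) with an adjusted p of 0.0871 in edgeR. The adjusted p of TJP1 in H1299 was 0.0226 without BRM014 replicate 1 and 0.0147 when libraries were scaled by their totals. Over the alternatives it ran from 0.0147 to 0.290, and in 11 of 13 TJP1 did not pass the threshold.

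**Figure D3:**
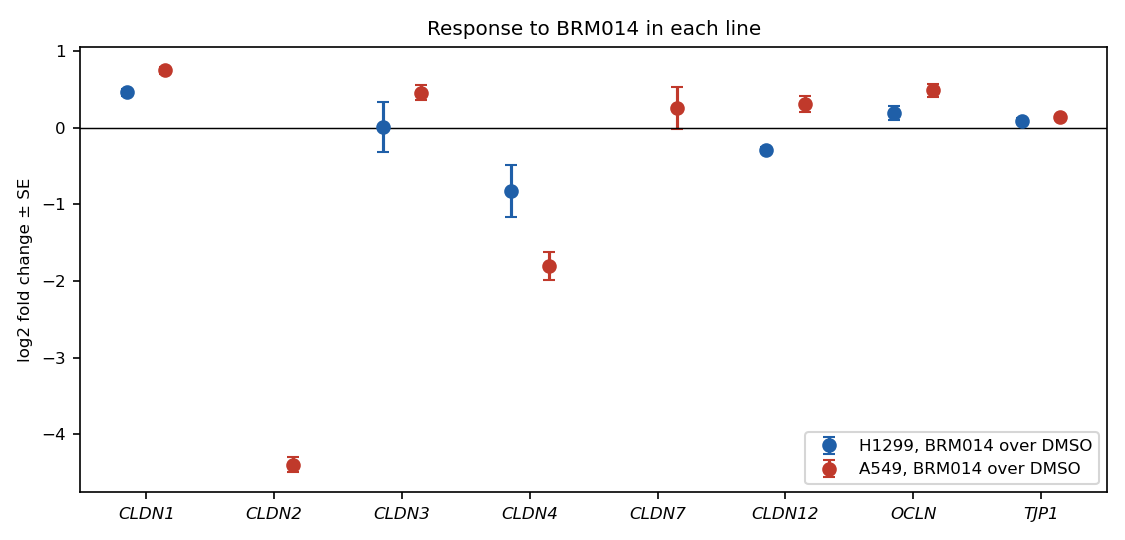
Log2 fold change of BRM014 over DMSO for each gene in H1299 and A549, each from the fit of its own line, with bars for the standard error; CLDN2 and CLDN7 have no H1299 value because they were below the minimum count there. CLDN2 and CLDN4 are far below 0 in A549, and CLDN12 is the gene whose points lie on opposite sides of 0.

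Counted over the family, all 8 genes were in the A549 fit. There, 4 of them (CLDN1, CLDN3, OCLN and TJP1) were higher in every BRM014 library than in any DMSO library, 2 (CLDN2 and CLDN4) were lower in every BRM014 library, and in 2 (CLDN7 and CLDN12) the groups overlapped. Of all 15188 A549 genes in the fit, 20.5% were higher and 27.3% lower without overlap. Since the choice of the family used this contrast, nothing is read from these counts. With BRM014 replicate 3 as the sole BRM014 library, in place of the pair with a shared header, 6 were higher and 2 lower than every DMSO library, against 37.4% and 38.6% of the 15726 genes in that fit. The median log2 fold change was 0.29 for the 8 genes and 0.02 for all genes in the fit.

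In H1299, 6 of the 8 genes were tested. CLDN1 rose, CLDN12 fell, and CLDN3, CLDN4, OCLN and TJP1 did not pass the threshold. Of all 14986 H1299 genes tested, 9.29% rose and 12.7% fell, 22.0% together. The BRM014 and DMSO libraries did not overlap for 3 of the 6 (CLDN1, CLDN4 and CLDN12), and for 34.8% of all genes tested. Without BRM014 replicate 1, 3 members rose, CLDN1, OCLN and TJP1, as did 8.44% of all 15195 genes in that fit. With libraries scaled by their totals, CLDN1 and TJP1 rose, as did 14.2% of all genes tested. The 6 genes had a median log2 fold change of 0.05, against 0.00 for all genes tested. The difference between the responses of H1299 and A549 was not tested for any member, because it would use the A549 contrast again.

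Without the inhibitor, the lines differed in each of the 6 genes tested. In DMSO, CLDN12 and OCLN were higher in H1299, and CLDN1, CLDN3, CLDN4 and TJP1 were lower. CLDN2 and CLDN7 were not tested, since CLDN7 passed the minimum count through A549 alone and the choice of CLDN2 asked for a high A549 level. Differences of this kind were common, since 42.9% of all genes were higher in H1299 and 42.8% lower, 85.7% of 16466 together. The A549 DMSO libraries were also part of the contrast that chose the family. The p-values of the 6 genes between the lines are therefore not independent of that choice. The culture medium and the number of PCR cycles differed between the lines, so line, medium and cycles cannot be told apart. Scaling by library totals shifted the median log2 difference over all genes by 0.23 towards H1299, and the 6 genes kept their directions and passed the threshold under that scaling too.

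CLDN12 had the widest difference upwards, at 76.5 ± 2.04 CPM in H1299 and 23.1 ± 3.4 CPM in A549 (SD, n = 3), or 1.72 as a log2 difference (SE 0.08, edgeR adjusted p = 1.48e-16). OCLN averaged 8.97 ± 0.636 CPM in H1299 and 6.82 ± 0.559 CPM in A549, or 0.39 as a log2 difference (edgeR adjusted p = 0.000318). For OCLN the A549 DMSO libraries were below all others, while its A549 BRM014 libraries overlapped with both H1299 groups.

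CLDN3 and CLDN4, the neighbouring genes, were both lower in H1299. CLDN3 averaged 0.596 ± 0.209 CPM in H1299 and 3.3 ± 0.134 CPM in A549, or -2.44 as a log2 difference (SE 0.19, edgeR adjusted p = 8.03e-12). CLDN4 averaged 0.688 ± 0.12 CPM in H1299 and 3.53 ± 0.205 CPM in A549, or -2.35 as a log2 difference (SE 0.20, edgeR adjusted p = 6.00e-11). With BRM014, CLDN4 averaged 0.394 ± 0.0634 CPM in H1299 and 0.993 ± 0.299 CPM in A549, and the A549 BRM014 libraries overlapped with the H1299 DMSO libraries.

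TJP1 averaged 73.2 ± 1.9 CPM in H1299 and 129 ± 0.118 CPM in A549, or -0.82 as a log2 difference (edgeR adjusted p = 1.23e-15). CLDN1 averaged 56.4 ± 3.18 CPM in H1299 and 79.7 ± 1.58 CPM in A549, or -0.51 as a log2 difference (edgeR adjusted p = 2.45e-10). CLDN7 had 1 count in H1299 and 62 in A549, a ratio of 0.0189. CLDN2 had 4 counts in H1299 and 2283 in A549, a ratio of 0.00206. Both ratios are descriptions without an interval, since neither gene was tested between the lines.

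**Figure D4:**
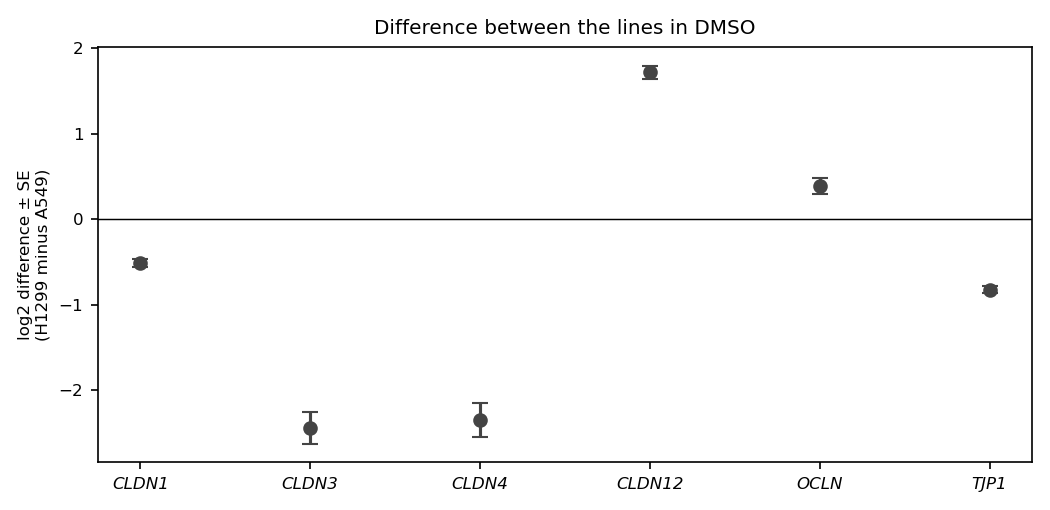
Log2 difference between the lines in DMSO, H1299 minus A549, with the standard error, for the 6 genes tested. CLDN12 and OCLN lie above 0, and CLDN3 and CLDN4 lie lowest, at -2.44 and -2.35.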

How the data were processed

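Per the labels' protocols, cells were grown with 10% serum, collected after 12 h with spike-ins added by cell number, and made into stranded total RNA libraries from 500 ng of RNA after removal of ribosomal RNA, with 9 PCR cycles for A549 and 8 for H1299. The authors deposited raw counts per gene, not normalized, in a table for each line. Tools named in the submitters' processing notes are STAR 2.7.3a, Bowtie 1.2.2, cutadapt 1.14, DESeq2 and featureCounts, and the build is hg38. Which tool did what, the annotation and the strand setting are not given in the sources used, and a gene that overlaps another or has an antisense partner may therefore hold reads of both. Nothing in the labels says that replicates were separate cultures, and the spread that p-values rest on may be technical.

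Tests were run with edgeR 4.0.16 in R 4.3.3. Each line was fitted alone over its whole table (filterByExpr defaults, minimum counts of 10 per library and 15 in total; TMM; two-sided quasi-likelihood test; Benjamini-Hochberg adjustment over all genes; threshold 0.05). Lines were compared in DMSO within 1 fit of all 12 libraries over shared identifiers, and CLDN7 was left without a test there after its counts were seen. Standard errors are the log2 fold change over the square root of F. Exact intervals (95%, Clopper-Pearson) and the floor of 3 counts cover counting error only. The fits were tested on simulated data. The alternatives tried were DESeq2 size factors, library totals, DESeq2 1.42.0, other count filters, the other set of libraries in the fit, the replicate number as a block, and leaving out each library.

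The members and the lists of other junction genes were chosen with earlier results of these data known. The members were all named in every comparison. The name table at hand matched 0 identifiers, so the other lists, fixed by symbol, were not analysed, and of the genes most like CLDN2 only the first is named, by identifier.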

Additional observations from a re-analysis of the deposited data

How the results depend on the processing

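In A549, each member kept the sign of its log2 fold change in every alternative that kept the gene. A minimum of 5 CPM in 3 libraries, which removes CLDN3, CLDN4 and CLDN7, left 1 member lower in A549 without overlap and 2 lower in H1299 than in A549 in DMSO. With single libraries left out in turn there were 4 to 5 members higher and 2 lower in A549, 1 to 3 rising and 1 falling in H1299, and 2 higher and 4 lower in H1299 in DMSO. Library totals gave 2 rising members in H1299, where 14.2% of all genes rose, and DESeq2 gave the same member counts as edgeR there and in DMSO. Without both A549 libraries that share a header, an alternative chosen after seeing the data that leaves a single BRM014 library, 6 members and 37.4% of all genes were higher than every DMSO library in A549. The calls of CLDN1 and CLDN12 in H1299, and of the 6 genes tested in DMSO, held in every alternative that kept the gene. With the replicate block, 1 member rose and 1 fell in H1299, and 2 were higher and 4 lower in DMSO. The share of all genes was not worked out for the block, DESeq2 or the 5 CPM minimum. Of the fits with a single library left out, it was worked out only without H1299 BRM014 replicate 1, where 8.44% rose. Nothing is read from the member counts of these settings. The deviations of H1299 libraries with the same number correlated at -0.0501, -0.0299 and 0.0101, so the numbers were not taken as pairs. A549 could not be blocked, since libraries a and b carry no number. Depth limits CLDN2, CLDN3, CLDN4 and CLDN7 in H1299, with at most 74 counts in a group.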

Other observations

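The spread between replicates differed widely among the members. CLDN12 had a coefficient of variation of 10.4% in A549 with BRM014 and 14.7% with DMSO, where counting alone gives 2.93% and 3.23%, and in H1299 it had 3.57% and 2.67%. CLDN2 varied by 0.709% between the A549 DMSO libraries, where counting alone gives 3.63%, and TJP1 by 0.0919%, where counting alone gives 1.37%. These were the smallest values among the members over the groups, each from an imprecise SD of 3 libraries. The other genes were not examined for this. Elsewhere CLDN2 varied by 11.8% in A549 with BRM014, where counting alone gives 16.8%. TJP1 varied by 4.39% in H1299 with BRM014, where counting alone gives 1.84%. No steadiness of either gene is read from them.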
